A study of Mus musculus with 6 samples.

Results

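The carbonic anhydrase genes were followed in RNA-sequencing data of mouse taste cells collected at 2 and at 6 months of age. The members were taken by name from the deposited table, namely Car1, Car2, Car3, Car4, Car6, Car7, Car8, Car9, Car12 and Car13, and all 10 were among its 23361 genes. The cells were isolated from the CV and Fol papillae (circumvallate and foliate), which carry the taste buds of the rear tongue, of C57BL/6 mice for which the labels name no treatment. Cells of several mice were pooled for each library, and 3 such pools were sequenced at 2 months and 3 at 6 months of age. Per the study's methods fewer mice went into each pool at 6 months, so age and the number of mice per pool cannot be told apart. The table gives 1 value per gene and age, in FPKM (fragments per kilobase of transcript, scaled to the mapped fragments of the library), which is the authors' value over the pools of that age. No spread between pools could therefore be computed, and each difference given here is a difference between 2 values with no SD and no test.

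Carbonic anhydrases are zinc enzymes that convert carbon dioxide and water to bicarbonate and a proton, and back. Family members differ mainly in where they work, in the cytosol, on the outer face of the plasma membrane or in secreted fluid. In the taste system the family is known from Car4, which sits on the surface of sour-sensing type III taste cells and takes part in the taste of carbonation, and from Car6, the salivary protein once named gustin.

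Of the 10 members, 5 had a mean of at least 1 FPKM over both ages, the level taken here as expressed, against 12652 genes of the whole table. In order of level these were Car13, Car12, Car7, Car2 and Car4, and they held the same order at 2 and at 6 months. The members together summed to 181 FPKM in the 2-month pools and 210.4 FPKM in the 6-month pools, a ratio of 1.16. Car13 alone made up 48.6% of that sum at 2 months and 51.0% at 6 months. Among the expressed members, 4 had a higher value at 6 months and 1 a lower value, and 0 reached a change of 1.5-fold in either direction. Changes are differences of log2(FPKM + 1), 6 minus 2 months, which understate the change of weakly expressed genes.

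The background for these counts is the set of expressed genes. A change of at least 1.5-fold upwards was found for 1.05% of them and downwards for 1.72%, and 46.3% had any higher value at 6 months. With both ages given the same upper quartile, 57.7% of expressed genes and 5 of the 5 expressed members had a higher value, while 0 members passed 1.5-fold and 152 expressed genes did so upwards and 202 downwards. Of the genes counted as higher by 1.5-fold, 31 of 133 were listed at 0 at 2 months, and of those counted as lower, 48 of 217 were listed at 0 at 6 months. The median log2 change was 0.17 over the expressed members and -0.01 over all expressed genes, whose quartiles were -0.10 and 0.08. With 5 genes and no replicate values, the higher median is a description of these pools.

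**Figure D1:**
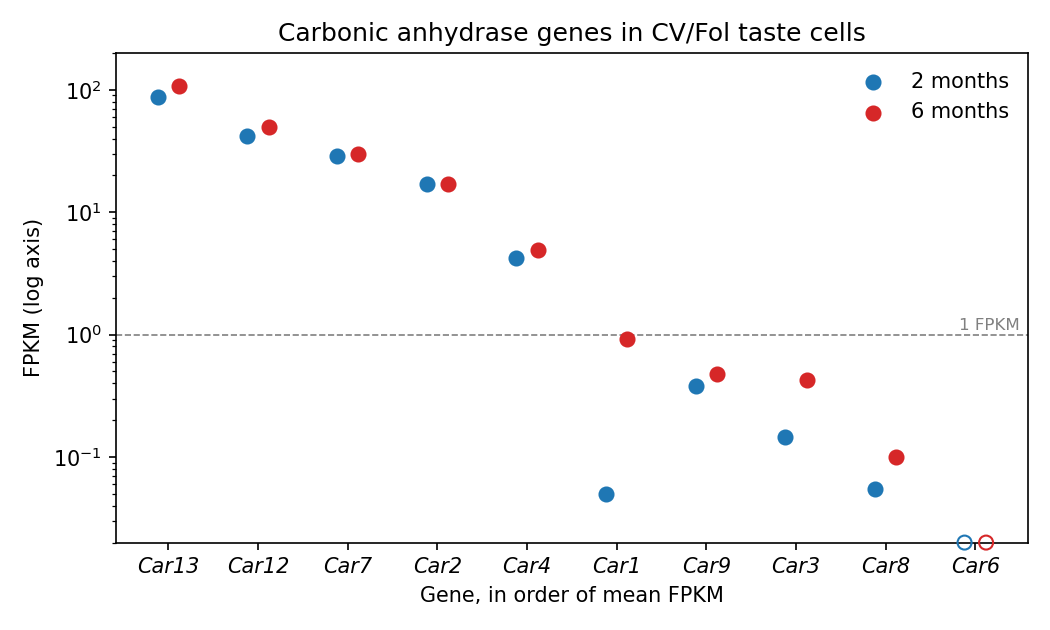
FPKM of the 10 carbonic anhydrase genes (log axis) at 2 months (blue) and 6 months (red), 1 authors' value per age, in order of mean level. Car13 to Car4 lie above the dashed line at 1 FPKM, Car1 moves from 0.0501 to 0.923 FPKM, and the open circles mark Car6, which is listed at 0 and has no place on a log axis.

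Promoter sequence of 2 expressed members is given first, to show what lies before the start of Car12, the highest member with an entry in the RefSeq promoter table of GRCm38.p6, and of Car4, the member known from sour cells. Each is the 250 bases before the annotated start, 5′ to 3′ on the gene's strand, with CpG dinucleotides in capitals. The Car12 stretch is chr9:66713436-66713685 (plus strand) and the Car4 stretch is chr11:84957504-84957753 (plus strand).
Car12: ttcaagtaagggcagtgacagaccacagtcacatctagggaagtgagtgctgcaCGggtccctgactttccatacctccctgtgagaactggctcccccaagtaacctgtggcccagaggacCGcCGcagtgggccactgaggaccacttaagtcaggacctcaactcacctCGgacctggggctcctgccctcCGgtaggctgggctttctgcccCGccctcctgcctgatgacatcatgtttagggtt
Car4: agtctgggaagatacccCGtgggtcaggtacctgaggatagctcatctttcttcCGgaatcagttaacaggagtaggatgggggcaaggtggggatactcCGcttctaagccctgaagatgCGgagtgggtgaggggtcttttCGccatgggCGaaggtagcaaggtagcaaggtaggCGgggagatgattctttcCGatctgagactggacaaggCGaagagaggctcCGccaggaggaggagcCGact

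Car12 has 6 CpG dinucleotides in this window and Car4 has 11, where the median over the 32851 promoters of the table is 6. At least as many were held by 50.4% of all promoters for Car12 and by 35.6% for Car4. Car7 has 3 annotated starts, with 27, 13 and 32 CpG dinucleotides before them, Car9 has 5 and Car6 has 3. In the Car7 window with 27, 137 of the 250 bases lie in exons of the GENCODE annotation. The gene Nae1 lies 51 bases from Car7 on the opposite strand, so that count is not of Car7 alone. CpG number and level did not run in the same order, since Car12 had a higher level than Car4 and Car7 but fewer CpG dinucleotides. Car1, Car2, Car3, Car8 and Car13 have no entry in that table.

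The cytosolic enzymes were described first. Car13 was at 88.1 FPKM in the 2-month pools and 107.3 FPKM in the 6-month pools, a log2 change of 0.28. Its mean level was reached or exceeded by 7.003% of expressed genes, and a change of at least that size, in either direction, was found for 9.48% of them. Car13 was thus the highest member at both ages and the one with the largest change among those expressed. Car7, best known from neurons, was at 28.9 FPKM in the 2-month pools and 29.9 FPKM in the 6-month pools, a log2 change of 0.05. Car2, a fast and widely transcribed enzyme that is abundant in red blood cells, was at 17.2 FPKM in the 2-month pools and 16.9 FPKM in the 6-month pools. Its log2 change of -0.02 turned to 0.02 when both ages were given the same upper quartile, so no direction can be given for it. Changes at least as large as those of Car7 and Car2 were found for 73.4% and 88.6% of expressed genes, which makes these the members with the least difference between the ages among those expressed.

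The other cytosolic members were under 1 FPKM. Car1, an enzyme of red blood cells and of colon epithelium, was listed at 0.0501 FPKM in the 2-month pools and 0.923 FPKM in the 6-month pools, a ratio of 18.4. It was the ninth of the 10 members at 2 months and the sixth at 6 months, and no other member moved as far in the order. On the log2(FPKM + 1) scale its change was 0.87, past 1.5-fold, but its mean of 0.486 FPKM kept it out of the expressed genes. Car3, an enzyme of skeletal muscle and fat, was at 0.145 FPKM in the 2-month pools and 0.429 FPKM in the 6-month pools, a ratio of 2.95 and a log2 change of 0.32. How many reads stand behind such low values is unknown, because FPKM does not carry the depth.

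Car8 differs from the enzymes in that it lacks the catalytic activity and binds the inositol trisphosphate receptor. It was at 0.0545 FPKM in the 2-month pools and 0.0998 FPKM in the 6-month pools. Only Car1 at 2 months and Car6 were listed lower.

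The membrane-bound members act on the outside of the cell. Car12, a transmembrane enzyme of many epithelia, was at 42.0 FPKM in the 2-month pools and 49.5 FPKM in the 6-month pools, a log2 change of 0.23. A change of at least that size was found for 13.7% of expressed genes. Car4, which is held on the outer face by a lipid anchor, was at 4.23 FPKM in the 2-month pools and 4.87 FPKM in the 6-month pools, a log2 change of 0.17, and 24.8% of expressed genes had a change at least as large. Car4 was the lowest of the expressed members, and 75.7% of expressed genes had a mean at least as high. Car9, a transmembrane enzyme known for its induction by low oxygen, was at 0.379 FPKM in the 2-month pools and 0.476 FPKM in the 6-month pools. The antisense gene Gm12454 overlaps the 5′ end of Car9, and without strand reads of the pair cannot be told apart. GENCODE also places the pseudogene Gm16399 within Car1, on its strand, and the pseudogene Gm11799 and the microRNA gene Gm25355 within Car8, and how reads there were counted is not given in the sources used here.

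Car6 was listed at 0 in both ages. It is the only secreted member and the best known in taste, as a product of salivary and lingual glands. A listed 0 is not proof that no reads were found, because Krt4, an abundant keratin of stratified epithelium, was listed at 7334 FPKM at 2 months and at 0 at 6 months. The value is therefore given only as listed. Some other gland genes were present in these pools. Of a list of 13 gland genes 7 were expressed. They were led by Ltf (lactoferrin) at 2144 FPKM in the 2-month pools and 2016 FPKM in the 6-month pools. The rest were under 1 FPKM, and 2 of the 13, Lcn3 and Lcn11, were listed at 0 in both ages. Lcn4 was at 0 and 0.0249 FPKM, Pip at 0.0356 and 0.0387 FPKM, Bpifa2 at 0.0948 and 0.0710 FPKM and Bhlha15 at 0.813 and 0.677 FPKM. Lipf, the lipase secreted by lingual glands, was at 83.7 and 14.7 FPKM, a log2 change of -2.43, and Dcpp2 was at 1.45 and 3.28 FPKM, a change of 0.80. The median log2 change of the 7 gland genes was -0.45, with 1 gene higher and 6 lower, and 2 past 1.5-fold (5 with a pseudocount of 0.1 FPKM). Transcripts of some gland genes were thus measured at both ages, and the part of gland cells in the values of the members was not tested.

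Of the 6 family genes that are no members, 4 were expressed, all below Car4. Car15 was at 3.60 FPKM in the 2-month pools and 3.93 FPKM in the 6-month pools, Car11 at 2.94 and 2.73 FPKM, Car5b, a mitochondrial enzyme, at 2.85 and 2.66 FPKM, and Car14 at 1.88 and 1.87 FPKM. Car5a was at 0.141 and 0.0947 FPKM and Car10 at 0.00576 and 0.00453 FPKM. In these 4 expressed genes 1 value was higher and 3 were lower in the older mice, with a median log2 change of -0.04 and 0 past 1.5-fold, and with the same upper quartile 2 were higher and 2 lower. All 16 family genes of the table summed to 1.15 times as much at 6 months as at 2 months.

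**Figure D2:**
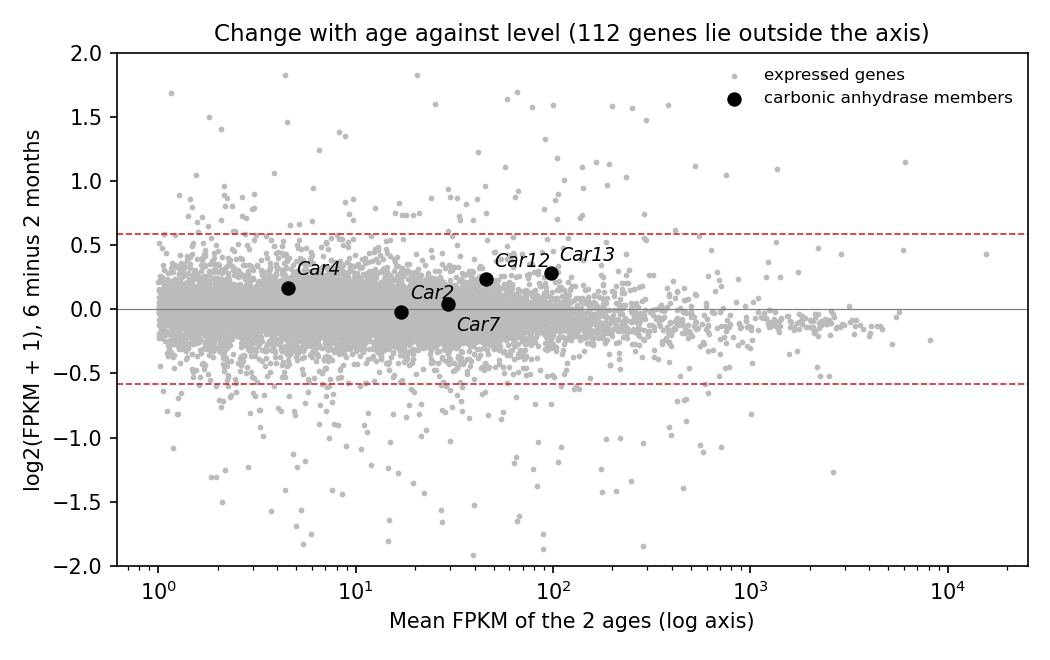
Change in log2(FPKM + 1), 6 minus 2 months, against the mean FPKM of both ages (log axis) for the 12652 expressed genes (grey), of which 112 lie beyond the plotted range, with the 5 expressed carbonic anhydrase genes in black. All 5 lie between the dashed lines at 1.5-fold, from -0.02 for Car2 to 0.28 for Car13.

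The members were next placed on the genome (GENCODE annotation, GRCm38), since position was not used to choose them. Car13, Car1, Car3 and Car2 stand in that order on chromosome 3 within 259044 bases, from 14641727 to 14900770. These 4 neighbours had very different levels. Car13 was the highest of all members and Car2 was expressed, while Car1 and Car3, which lie between them, were under 1 FPKM at both ages. Car3 ends 13749 bases before Car2 begins, and their levels at 2 months were 0.145 and 17.2 FPKM. At 6 months they were 0.429 and 16.9 FPKM.

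The other members are scattered. Car8 (8143362 to 8239041), Car9 (43506966 to 43513729) and Car6 (150187015 to 150201332) are on chromosome 4, Car7 (104534689 to 104550343) on chromosome 8, Car12 (66713686 to 66766845) on chromosome 9 and Car4 (84957786 to 84966044) on chromosome 11. The nearest protein-coding genes on each side that are no members number 14, of which 13 had a row of their own in the table and 11 of these were expressed. Before and after are used here by rising coordinate, also for Car6 and Car8, which are on the minus strand. Eno1, after Car6, is held only in a row shared with Gm5506, at 218.2 and 238 FPKM, and was left out of these counts. Of these 11, 0 reached 1.5-fold, and their log2 changes ran from -0.26 to 0.13. Nae1 starts 51 bases from Car7 on the opposite strand and had a similar level, 29.6 FPKM in the 2-month pools and 28.0 FPKM in the 6-month pools. Znhit3 and Usp32 on the sides of Car4 were at 9.43 and 8.36 FPKM in the 2-month pools and 8.77 and 8.88 FPKM in the 6-month pools. 1810022K09Rik, before Car13, was at 207.2 and 196.2 FPKM. Car12 had Usp3 (19.3 and 19.7 FPKM) and Aph1b (3.39 and 3.79 FPKM) beside it, and Car9 had Arhgef39 (2.34 and 1.79 FPKM) and Tpm2 (81.0 and 78.8 FPKM). Car8, at under 0.1 FPKM, stood between Tox (1.81 and 1.37 FPKM) and Rab2a (84.1 and 77.6 FPKM), Pdp2 after Car7 was at 1.95 FPKM in both ages, and Gm9733 after Car2 and Slc2a7 before Car6 were under 0.05 FPKM.

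Bicarbonate and protons made by these enzymes are moved by other proteins, and their genes were described from 2 lists. Of 13 bicarbonate and anion transporter genes 6 were expressed, 4 of them higher and 2 lower at 6 months, with 0 past 1.5-fold and a median log2 change of 0.03. Slc4a2, an anion exchanger, was at 22.2 FPKM in the 2-month pools and 25.1 FPKM in the 6-month pools. Slc26a9, a chloride transporter, was at 7.46 and 4.83 FPKM, a log2 change of -0.54. As a plain ratio it was 1.54-fold lower at 6 months, and with a pseudocount of 0.1 FPKM it is the 1 gene of this list past 1.5-fold. Of 17 proton and acid transporter genes 14 were expressed, 4 higher and 10 lower (5 and 9 with the same upper quartile), with 0 past 1.5-fold and a median of -0.11. Atp6v0c and Atp6v1e1, subunits of the vacuolar proton pump, were the highest at 243 and 238.4 FPKM in the 2-month pools and 220.2 and 217.5 FPKM in the 6-month pools.

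Because the values come from all cells of a pool, fewer cells of a type and less RNA per cell cannot be told apart, and lists of marker genes were set beside the members they bear on. Taste cells were well represented. Of 8 type II markers 8 were expressed, led by Gng13 (148.5 and 125.9 FPKM) and Gnat3 (84.7 and 79.9 FPKM), 4 higher and 4 lower (5 and 3 with the same upper quartile), with a median log2 change of 0.01. Of 4 type I markers 3 were expressed, 1 higher and 2 lower in the older mice (median log2 change -0.19). They were Entpd2, an ectonucleotidase, at 66.1 and 57.7 FPKM, the potassium channel Kcnj1 at 9.25 and 7.71 FPKM and the GABA transporter Slc6a11, which was at 1.76 and 3.56 FPKM, a change of 0.73. The remaining type I marker, Slc1a3, was at 0.710 and 0.988 FPKM, a log2 change of 0.22. It was under 1 FPKM and is not in that median, so no common direction can be given for type I markers. The keratinocyte genes Krt5 (2180 and 1962 FPKM), Krt14 (1287 and 1533 FPKM) and Krt10 (149.7 and 70.5 FPKM, a log2 change of -1.08) were also high. The paper counts differentiating taste cells among the cells that express K14, the product of Krt14. Which cells these keratin transcripts came from was not tested. Of the 5 keratinocyte genes 3 could be compared, 1 higher and 2 lower with a median of -0.15, since Krt13 was listed at 0 in both ages and Krt4 in 1. Of 7 leukocyte genes 5 were expressed, 3 higher and 2 lower with a median log2 change of 0.01, among them Lyz2 at 293.3 and 253.7 FPKM and Cd68 at 10.05 and 7.15 FPKM.

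Car4 is known from type III cells and from capillary endothelium. Of 8 type III markers 7 were expressed, and their summed level was 68.8 FPKM in the 2-month pools and 78.1 FPKM in the 6-month pools. Their median log2 change of 0.16 lay near the 0.17 of Car4, with 5 genes higher, 2 lower and 0 past 1.5-fold. Pkd1l3, a channel subunit of sour cells, was at 26.2 and 33.5 FPKM, while Otop1, their proton channel, was at 14.4 and 12.2 FPKM. Of 9 endothelial markers 1 was expressed, the receptor gene Tek at 1.57 and 1.55 FPKM, and Egfl7 followed at 0.544 and 0.506 FPKM. The defining endothelial genes Pecam1 and Cdh5 were at 0.331 and 0.295 FPKM and at 0.0323 and 0.0951 FPKM. The part of either cell type in the Car4 values was not tested.

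Car1 and Car2 are abundant in red blood cells, and Car3 in muscle and fat. Of 11 erythroid genes 6 had a row of their own and 2 of these were expressed. Hba-a2, an alpha globin, was at 59.4 FPKM in the 2-month pools and 80.4 FPKM in the 6-month pools, and Alas2, of haem synthesis, was at 4.99 and 7.05 FPKM, both with a log2 change of 0.43. The beta globin gene Hbb-b2 was listed at 0 in both ages in its own row, but a row shared by Hbb-b1 and Hbb-b2 was at 25.4 and 41.9 FPKM, and a row shared by Hba-a1 and Hba-a2 at 0.288 and 0.208 FPKM. The globin genes are near-identical copies, so how reads were split among them is uncertain. The other 3 genes with a row were under 0.1 FPKM. Of 12 skeletal muscle genes 7 were expressed, all 7 were higher at 6 months and 5 passed 1.5-fold. Their median log2 change was 0.78, with Tnnc2 at 2.14 and 5.57 FPKM, Mb (myoglobin) at 1.82 and 4.28 FPKM and Mylpf at 3.76 and 5.25 FPKM. The muscle genes that were not expressed did not all share this direction. Pvalb was lower at 6 months, at 0.725 and 0.424 FPKM. Atp2a1 was at 0.603 and 0.936 FPKM and Myh4 at 0.216 and 0.293 FPKM, while Myh2 and Actn3 were under 0.1 FPKM in both ages. The summed level of the muscle list was 15.8 FPKM in the 2-month pools and 29.1 FPKM in the 6-month pools, and Car3 moved in the same direction. Of 10 adipocyte genes 2 were expressed, Fabp4 at 0.692 and 3.48 FPKM and Lpl at 1.08 and 0.954 FPKM, and the other 8 were under 0.2 FPKM in both ages. Fabp4 counted as expressed only through its 6-month value and Lpl only through its 2-month value, so the filter favours these directions. Whether red cells, muscle or fat had a part in the values of Car1, Car2 and Car3 was not tested.

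Car9 is a textbook target of the hypoxia-inducible factor. The last 30 bases before its RefSeq start (chr4:43506996-43507025, plus strand) are shown because they hold the letters of the core motif bound by that factor, ACGTG, here read on the other strand and in capitals. These bases lie within the first 60 bases of Car9 in the GENCODE annotation, which starts the gene earlier than RefSeq does.
Car9: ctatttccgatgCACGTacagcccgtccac

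The motif ends 13 bases before the start, and this motif was present on either strand in 16.6% of all promoter windows of 250 bases. Car6 holds it as 2 overlapping matches on opposite strands, and it was not found in the windows of Car12, Car4 or Car7. The Car6 matches lie within bases that GENCODE places inside Car6, where 197 of the 250 bases of the window are exonic. Of the 14 hypoxia-induced genes on the list 14 were expressed, 12 were higher and 2 lower at 6 months, and 1 passed 1.5-fold. Their median log2 change was 0.20 with a pseudocount of 1 FPKM and also with 0.1 FPKM, where Car12 was at 0.23 and 0.24. Car9 was at 0.10 with the first and 0.27 with the second, so its place below or above that median depends on the pseudocount. Ldha and Pgk1, enzymes of glycolysis, were at 372.4 and 168.4 FPKM in the 2-month pools and 433.9 and 191.7 FPKM in the 6-month pools, and Ankrd37 was at 7.20 and 12.3 FPKM, a log2 change of 0.70. Car9 itself stayed under 0.5 FPKM beside these expressed genes, and a link between them was not tested.

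**Figure D3:**
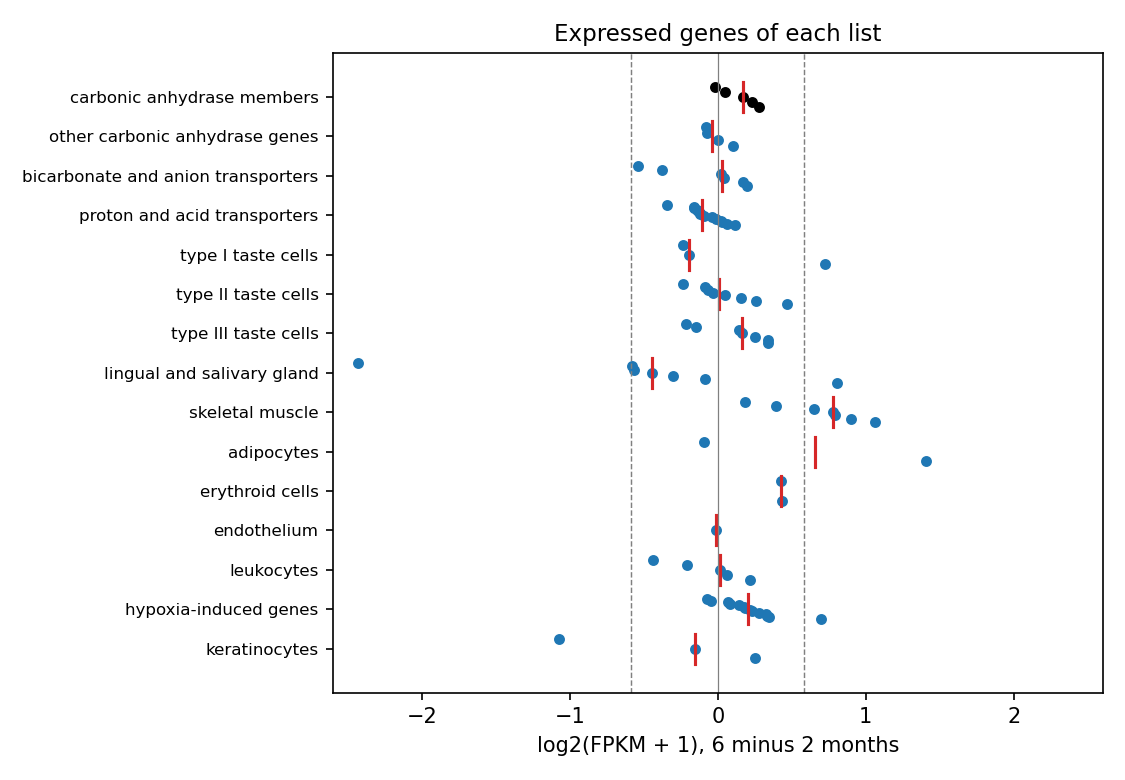
Change in log2(FPKM + 1), 6 minus 2 months, of each expressed gene above 0 in both ages (points) for the carbonic anhydrase members (black) and 14 other lists (blue), with the median of each list as a red bar and dashed lines at 1.5-fold. The 5 members have a median of 0.17, and skeletal muscle stands highest with a median of 0.78.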

How the data were processed

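Isolated CV/Fol taste cells of 6 pools were sequenced as poly A selected TruSeq libraries. Per the submitters' processing notes and the paper's methods, reads were aligned by the authors with TopHat 2.0.7 (GRCm38/mm10, RefSeq gene models), who quantified FPKM with Cufflinks 2.1.1, and Cuffdiff set both ages side by side. The authors deposited 1 FPKM value per gene and age. The normalization between libraries is not given in the sources used here. The column marked B was taken as 6 months and the column marked S as 2 months, after the letters of the sample titles. The sample labels give 2 and 6 months, while the series' design text once names 3 months.

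A column of p-values from the authors' own comparison was not used. With 1 value per age no test, interval or self-made chance comparison was run. Expressed means a mean of at least 1 FPKM, and the pseudocount was 1. Of the rows, 99 are shared by several genes, 0 of them holding a member, and were matched to no gene of a list. Genes at 0 in exactly 1 age were left out of the changes of the lists. Named genes are all members and relatives, nearest protein-coding neighbours, and of each list the 2 of highest mean and up to 2 with the largest change past 1.5-fold. Pecam1, Cdh5, Hbb-b2, Krt13, Krt14, Lcn3, Lcn4, Lcn11, Pip, Bpifa2 and Bhlha15 fall outside this rule and were named after their values were seen. The same holds for Slc1a3, Atp2a1, Pvalb, Myh4, Myh2 and Actn3. Members and lists were chosen with earlier results of these data known. The counting was tested on simulated data with planted changes larger than 1.5-fold, only in genes well above 1 FPKM. Genes near or below 1 FPKM were not covered by it. Alternatives were another pseudocount, filter, fold and scaling. Depth is unknown. Python 3.11.15, numpy 2.4.6, pandas 2.3.3 and matplotlib 3.10.9 were used.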

Additional observations from a re-analysis of the deposited data

How the results depend on the processing

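The pools of the 2 ages come from different mice, so the design has no pairs. Because each age has 1 authors' value, no pool could be left out in turn. Of 60 alternative values, 53 stayed within 0.1 on the log2 scale or within 1.5 times for a count, and 7 moved further. Part of the 53 could not have moved, so their number is no measure of robustness. The scaling to the same upper quartile, a factor of 1.03, shifts any log2 change by less than 0.1. Car6, at 0 in both ages, has a change of 0 under every setting. A reversed call could not arise for the members, since 0 of them were called. With a pseudocount of 0.1 FPKM the log2 change was 2.77 for Car1, 1.11 for Car3, 0.37 for Car8 and 0.27 for Car9, all of them under 1 FPKM, where the pseudocount of 1 holds the change down by its construction. With the same pseudocount the genes past 1.5-fold numbered 1 instead of 0 among the bicarbonate and anion transporters and 5 instead of 2 among the gland genes, and over all expressed genes 185 were higher and 274 lower instead of 133 and 217. Without a filter on low values, 1 member, Car1, passed 1.5-fold. Scaling the 6 month values by 1.03 to the same upper quartile moved the median of all expressed genes from -0.01 to 0.03 and turned the sign of Car2 and of the 1 expressed endothelial gene, Tek (-0.01 to 0.01). Both alternatives for the marker and transporter lists were chosen after seeing the data. The number of reads behind the values of Car1, Car3, Car8 and Car9 is unknown, which limits what can be said of their ratios.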

Other observations

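Among all genes, 61 were listed at 0 in 1 age and at 10 FPKM or more in the other. Of these, 58 had names of microRNA or small nucleolar and Cajal body RNA genes. The other three were Gm12238 (13.0 FPKM at 2 months), Krt4 (7334 FPKM at 2 months) and Krt6a (3391 FPKM at 6 months), each listed at 0 at the other age. They were singled out after their values were seen.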
